A study of Mus musculus with 24 samples.

Results

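Transcripts annotated as targets of nonsense-mediated decay were followed by bulk RNA sequencing in the frontal cortex of 24 mice, as a level and as a share of the reads of their gene. A transcript was included when its type was nonsense-mediated decay in the GENCODE M21 annotation of the mouse genome build GRCm38, its gene was protein coding, and at least 12 of the 24 libraries assigned it 5 or more reads. The rule kept 3041 transcripts of 2354 genes, which is 42.5% of the 7162 transcripts of this type, out of 149444 transcripts quantified. No difference between genotypes entered the rule, and 4 transcripts of Tardbp that met it were left out. Of the 4111 transcripts below the rule, 2229 reached 5 reads in no library. At its edge, 102 transcripts passed in exactly 12 libraries with a median of 7.36 mean reads, and 86 fell short in 11 libraries with a median of 7.05. All 24 libraries gave 5 reads or more to 1256 of the kept transcripts.

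Nonsense-mediated decay is the pathway that degrades an mRNA on which the ribosome stops well before the last exon. A junction between exons keeps a protein complex bound until a ribosome passes it, and a complex left behind after the stop codon recruits the Upf and Smg factors that break the RNA down. Many genes of RNA-binding proteins splice in an exon with a stop codon of its own, called a poison exon, and so lower their own mRNA. An annotation as a decay target rests on the position of the stop codon and is not a measurement of decay.

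The mice were littermates from a cross of Grn+/- mice, which have 1 working copy of the progranulin gene, with mice carrying a transgene for human TDP-43 (hTDP), the RNA-binding protein encoded by TARDBP. There were 4 genotypes of 6 mice each, 3 of each sex. Mice with both Grn copies were Grn+/+:hTDP- without and Grn+/+:hTDP+ with the transgene, and mice with 1 copy were likewise Grn+/-:hTDP- or Grn+/-:hTDP+. Ages were 9.44 to 10.79 months in Grn+/+:hTDP-, 8.19 to 10.79 months in Grn+/-:hTDP-, and 9.44 to 10.07 months in both transgenic groups, and 4 of the 6 Grn+/-:hTDP- mice had an age that no other group held. The promoter of the transgene and the strain of the mice were not given in the sources used here. Brains were perfused with saline and frozen, polyadenylated RNA was sequenced, and each library was a separate mouse.

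The sequences printed here show how an inserted exon ends translation in genes of splicing factors, the family in which poison exons are best known. Each runs 5′ to 3′ on the strand of the gene from the first base of an exon that the gene's most read coding transcript lacks to the in-frame stop codon, which is in capitals. All are from the GENCODE M21 transcripts of GRCm38. Srsf3, Srsf6, Srsf7 and Tra2b encode SR and SR-related proteins that promote the use of exons, and Hnrnpl and Hnrnpll encode a pair of related proteins that bind CA-rich RNA.
Srsf3-201, chr17:29039454-29039487, plus strand: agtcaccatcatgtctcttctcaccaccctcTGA
Srsf6-201, chr2:162932815-162932966, plus strand: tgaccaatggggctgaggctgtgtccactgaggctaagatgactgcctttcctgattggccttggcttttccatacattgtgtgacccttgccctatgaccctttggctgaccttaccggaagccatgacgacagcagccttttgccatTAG
Srsf7-203, chr17:80205054-80205081, minus strand: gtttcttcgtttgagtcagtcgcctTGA
Tra2b-206, chr16:22259181-22259261, minus strand: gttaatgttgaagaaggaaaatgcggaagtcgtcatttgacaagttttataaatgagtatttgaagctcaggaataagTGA
Hnrnpl-213, chr7:28817335-28817393, plus strand: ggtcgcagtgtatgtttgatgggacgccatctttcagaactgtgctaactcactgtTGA
Hnrnpll-203, chr17:80044976-80045022, minus strand: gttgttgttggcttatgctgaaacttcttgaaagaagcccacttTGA

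In Srsf3-201 the stop codon comes 34 bases into exon 4 of 7, an exon of 456 nt, and 548 nt before the last exon junction. In Srsf7-203 it comes 28 bases into exon 4 of 9, an exon of 460 nt, 699 nt before the last junction. Tra2b-206 reads 81 bases of its exon 2 of 10, and its stop lies 1015 nt before the last junction. In Hnrnpl-213 and Hnrnpll-203 the added exons are short, 70 and 83 nt, and the stops lie 842 and 807 nt before the last junction.

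A pair of related genes carried the same kind of exon with a like sequence. Tia1 and Tial1 encode RNA-binding proteins that bind U-rich RNA at splice sites and gather in stress granules. Their exons, shown to the stop codon, matched at 25 of 37 positions and both ended in TAA.
Tia1-218, chr6:86423606-86423642, plus strand: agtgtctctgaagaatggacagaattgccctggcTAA
Tial1-204, chr7:128447071-128447107, minus strand: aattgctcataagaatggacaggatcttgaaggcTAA

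Across the 3041 transcripts, 3030 had the stop codon more than 50 nt before the last exon junction, the distance commonly used to predict decay. The median distance was 441 nt, with quartiles of 210 and 975 nt. After the stop codon, 602 transcripts had 1 junction, 541 had 2 and 1896 had 3 or more. The stop was TGA in 1729 transcripts (56.9%), TAA in 682 (22.4%) and TAG in 629 (20.7%). The annotated coding sequence had no known start in 657 transcripts, so their reading frame rests on an incomplete model.

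Each transcript was set beside the most read coding transcript of its gene. In 857 transcripts an inner exon of that coding transcript was skipped and no inner exon was added up to the stop codon. In 572 the stop codon lay in an added exon. A further 141 had an added exon before the stop codon, 152 shared the stop codon of the coding transcript and had a junction after it, and 1274 differed in another way, such as a shifted splice site or another start. The remaining 45 were in genes with no coding transcript in the files. The added exons with a stop codon were 541 distinct exons of 503 genes, with a median length of 115 nt, and 202 of the 572 (35.3%) had a length that is a multiple of 3. A junction that no other annotated transcript of the gene uses was present in 2430 transcripts, 184 had only bases of their own, and 427 had neither.

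Most of these transcripts were a minor product of their gene. The mean share of gene reads had a median of 3.13%, with quartiles of 0.884% and 11.3%. Among the 2996 transcripts of genes with a coding transcript, 834 held under 1% of the gene's reads, 990 held 1% to 5%, 389 held 5% to 10%, 447 held 10% to 25%, 226 held 25% to 50% and 110 held over 50%. Of these last, 80 also held over 50% of the gene in TPM, a unit scaled to library size and corrected for transcript length, and 93 had a junction of their own. Transcripts with the stop codon in an added exon had a median share of 2.12%, those with a skipped exon 3.54%, and those with the stop codon of the coding transcript 6.78%.

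**Figure D1:**
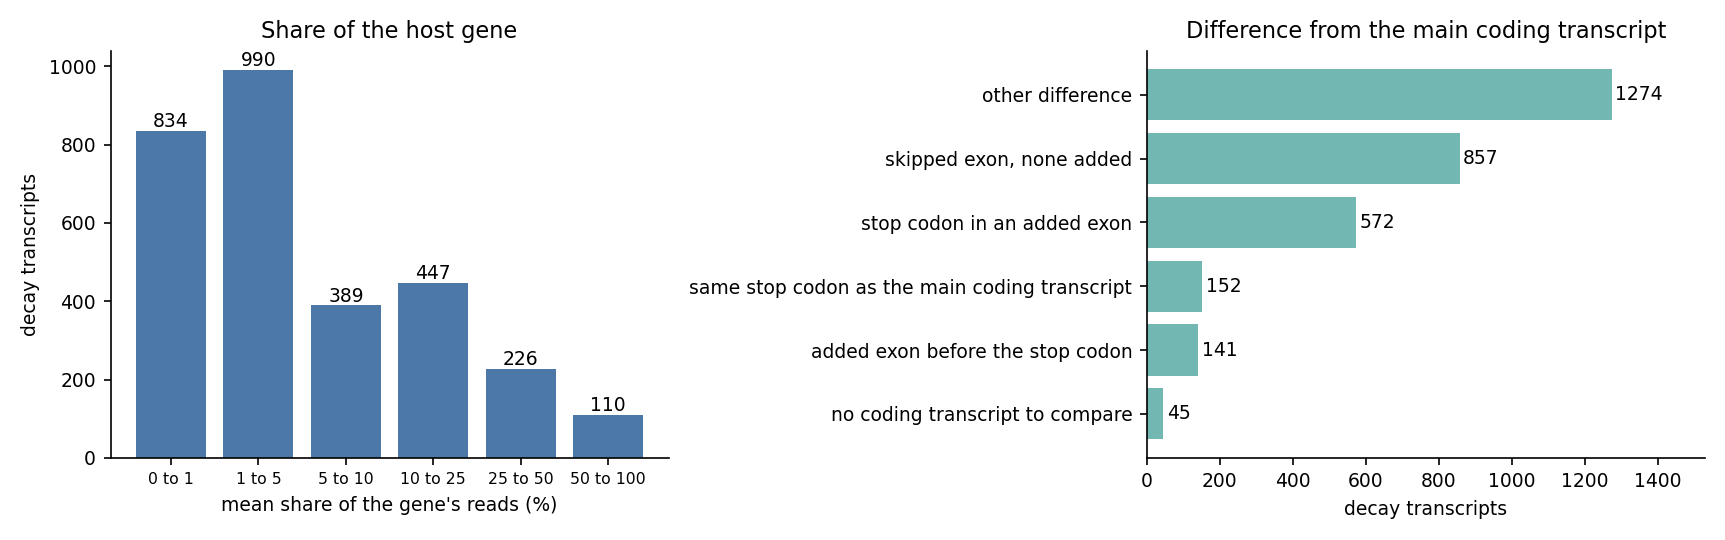
Left, number of decay-annotated transcripts by mean share of their gene's reads over 24 libraries, for genes with a coding transcript; right, number by the difference from the gene's most read coding transcript. Shares under 5% are the most frequent, with 834 and 990 transcripts, and 110 transcripts hold over 50%. In the class with a skipped exon and none added, no inner exon is added up to the stop codon.

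Levels were low and spread over a wide range. The median was 54.7 mean reads per library, with quartiles of 19.2 and 184, or 1.14 TPM. Above 1 TPM were 1632 transcripts, above 10 TPM 248 and above 100 TPM 17. The 10 most abundant held 17.4% of the summed TPM.

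The most abundant was Ppia-201, of the gene for the prolyl isomerase cyclophilin A, at 712 TPM ± 49.0 (SD, n = 24) and 29.1% of the gene's reads. Atp2a2-203, of the calcium pump of the endoplasmic reticulum, followed at 300 TPM ± 31.9 (SD, n = 24) and held 81.2% of the gene's reads. It shares the stop codon of the coding transcript Atp2a2-201, and the stop is followed by a junction 1258 nt downstream. Of its bases, 83 overlap Gm43361 on the opposite strand. Cbarp-212, of a protein that regulates voltage-gated calcium channels, stood at 212 TPM ± 11.4 (SD, n = 24) and 78.3% of its gene, although it has no junction and no base of its own, and 132 of its bases overlap Stk11 on the opposite strand. Its reads were thus assigned with no feature that only this transcript carries. Its exon 5 of 11, which the coding transcript Cbarp-201 lacks, is shown from its first base to the stop codon in capitals. This stop makes the transcript that was assigned most of the gene's reads a decay target in the annotation.
Cbarp-212, chr10:80136703-80136743, minus strand: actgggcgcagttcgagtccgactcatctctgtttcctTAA

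Others among the 10 were Ndufa3-204 (210 TPM), of a complex I subunit, Ptov1-205 (206 TPM), Dnm1-206 (185 TPM), of the vesicle-scission enzyme dynamin 1, Mobp-204 (166 TPM), Rpsa-206 (135 TPM), of a ribosomal protein, and Hnrnpu-206 (148 TPM), of a nuclear matrix RNA-binding protein. Hnrnpu-206 held 53.8% of its gene's reads. Dnm1-206 was a minor product, at 6.40% of its gene's reads.

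Several transcripts were assigned most of the reads of genes with a coding transcript. Kcna6-201, of a voltage-gated potassium channel, held 94.6% ± 2.46 (SD, n = 24) of its gene's reads, with the stop codon in exon 1 of 2 and shared with the coding transcript Kcna6-204. It has no junction and 2 bases of its own. Lgi1-201, of a secreted synaptic protein mutated in epilepsy, held 84.0% ± 1.5 (SD, n = 24) and also has no junction or base of its own. Rnf114-203, of a ubiquitin ligase, held 83.6% ± 2.0 (SD, n = 24) and has a junction of its own, which skips an exon. Rpgrip1-217 held 95%, Gm48551-202 97.7%, Gbp4-202 89.6%, Zc3h12b-203 83.0% and Gm14296-204 82.3% of their genes. For Gbp4-202 single libraries ran from 41.2% to 100%.

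Mobp-204, of a structural protein of myelin, was the abundant transcript with the widest spread between mice. Its level in CPM, reads scaled to library size, ran from 83.3 through a median of 153 to 262 in Grn+/+:hTDP-, from 180 through 249 to 382 in Grn+/+:hTDP+, from 92.3 through 136 to 530 in Grn+/-:hTDP-, and from 96.1 through 180 to 333 in Grn+/-:hTDP+. The groups overlapped widely. Its share of the gene, in contrast, stayed between 78.7% and 86.3% in all 24 libraries. Summed CPM of the oligodendrocyte markers Mbp, Mog, Mal, Cldn11 and Hapln2 ran from 576 to 2603 over the same libraries, with group means of 885, 1416, 1206 and 1046 in the order above. Of the bases of Mobp-204, 79 are shared with Gm38642 on the same strand. The part of the markers in its level was not tested, and in these bulk samples fewer cells of a type and less RNA per cell cannot be told apart.

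Over each whole library, the 3041 transcripts drew 1.28% to 1.38% of the reads. The mean was 1.31% ± 0.0144 (SD, n = 6) in Grn+/+:hTDP-, 1.33% ± 0.0231 in Grn+/+:hTDP+, 1.31% ± 0.0300 in Grn+/-:hTDP- and 1.31% ± 0.0331 in Grn+/-:hTDP+. These values overlapped between all 4 groups. The 2996 of them in genes with a coding transcript made up 7.56% to 7.97% of the reads of those genes.

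Libraries held 61445842 to 100859149 estimated reads. Human TARDBP stood at 28.9 to 38.1 TPM in the 12 hTDP+ libraries and at most 0.0143 TPM in the others, and Grn averaged 51.0 and 47.9 CPM in the Grn+/+ groups and 25.9 and 26.7 CPM in the Grn+/- groups without and with the transgene. Defining markers of excitatory neurons, inhibitory neurons, astrocytes, oligodendrocytes and microglia were present in every library, markers of the choroid plexus summed to at most 10.3 CPM, and no marker list was at 0 throughout. One library stood apart: in Grn+/+:hTDP+ replicate 2, with 97736984 reads, 40188 transcripts had any read, where the other libraries had 65994 to 69846. In it 1398 of the decay-annotated transcripts (46.0%) were listed at 0, against 93 to 203 in the other 23 libraries. It listed 37 transcripts with over 300 mean reads at 0, against 0 to 6 elsewhere, and its median share was 0.428% against 2.53% to 3.04%. Values that moved most with this library are given with and without it.

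**Figure D2:**
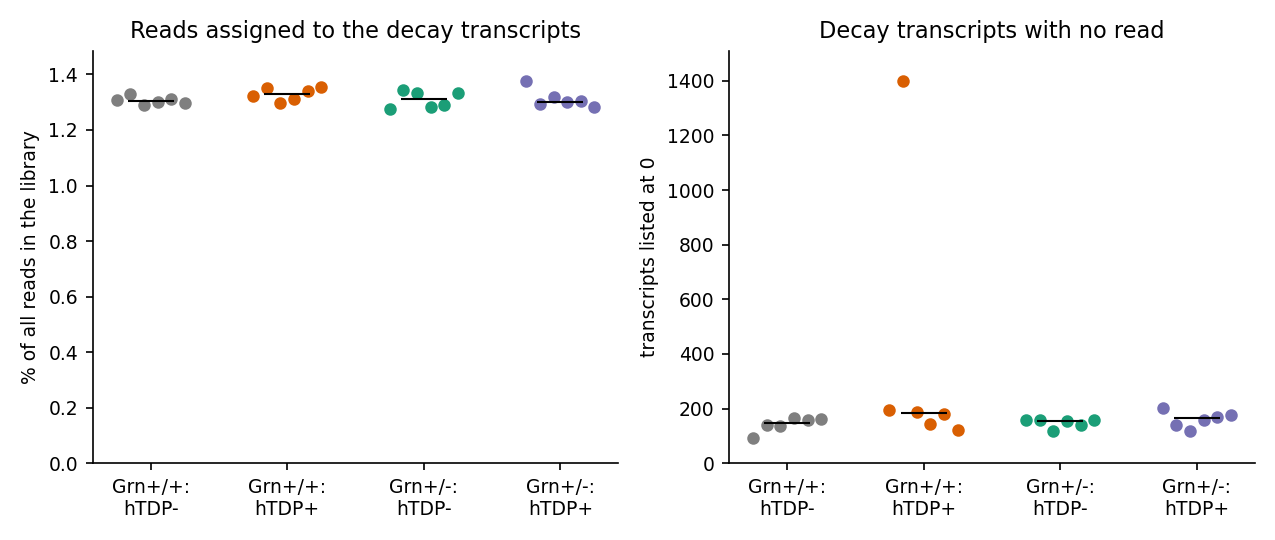
Percent of all reads assigned to the 3041 decay-annotated transcripts (left) and number of them listed at 0 (right) in each of 24 libraries, by genotype, with a line at the median of 6. The share of reads lies between 1.28% and 1.38% in every group, and replicate 2 of Grn+/+:hTDP+ lists 1398 transcripts at 0.

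The spread between libraries limited what could be seen. It holds differences between mice, noise of low counts and error in splitting shared reads, which were not told apart. Over the 23 other libraries the median coefficient of variation was 68.9% for transcripts under 20 mean reads, 42.5% from 20 to 100, 23.9% from 100 to 1000 and 11.3% above 1000. Protein-coding transcripts of the same read classes had 64.1%, 40.9%, 19.4% and 7.96%. The median standard error (SE) of the average transgene effect was 0.40 on the log2 scale of levels, and 0.07 above 1000 reads. For the interaction it was 0.80 over all of them.

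Levels were compared with edgeR's quasi-likelihood test over 53053 transcripts, of which 2906 were decay annotated. The other 135 failed the filter on low counts and had at most 11.8 mean reads. Shares were compared with limma on the log2 ratio of a transcript's reads to those of the rest of its gene, over 44259 transcripts with 2855 members. A transcript was called at a Benjamini-Hochberg adjusted p under 0.05 over all transcripts tested. Effects were the transgene in each Grn genotype and averaged over both, the Grn genotype in the same way, and the interaction, which is how much larger the transgene effect was in Grn+/- than in Grn+/+ mice. The comparisons share libraries and are not independent.

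With the transgene, 1 decay-annotated transcript rose, and no other passed the test. Averaged over both Grn genotypes, Ppm1a-203 was called for its level, 1 of 2906, where 0.0415% of all transcripts tested were called. It was also the 1 of 2855 called for its share, against 0.0203% of all. In Grn+/+ mice 1 was called for level (0.017% of all) and 0 for share (0.00452% of all), and in Grn+/- mice 1 for level (0.00754% of all) and 0 for share (0.00226% of all). The level calls are Ppm1a-203 in each case. At an unadjusted p under 0.05 the limma test of shares had 178 decay-annotated transcripts in Grn+/+ and 58 in Grn+/-, beside 6.25% and 2.56% of all transcripts. Without the library that stood apart these counts were 134 (4.63%) and 141 (4.88%), beside 4.97% and 5.04% of all transcripts. With edgeR's likelihood-ratio test of transcript usage, Ppm1a-203 was called for share in each genotype, and the shares over all given for limma do not apply to it. The quasi-likelihood test of usage called it in neither genotype. Nor did limma on shares in TPM (adjusted p = 0.659 in Grn+/+ and 0.9999 in Grn+/-).

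Ppm1a encodes a magnesium-dependent phosphatase that switches off stress kinases and SMAD signalling. Ppm1a-203 lies at chr12:72757455-72794564 on the plus strand and held a mean of 3300 reads, 69.3 TPM and 14.9% of its gene's reads. It starts from an exon of its own of 237 nt at chr12:72757455-72757691. Its exon 2, at chr12:72783683-72783793, is 111 nt long where that of the coding transcript Ppm1a-201 runs on to 72784536 and has 854 nt, so that 743 bases are left out. The join is printed with the last 30 bases of the shortened exon 2 in lower case and the first 30 bases of exon 3, chr12:72786672-72786701, in capitals. The stretch after it shows exon 4 of 6 from its first base, chr12:72790633-72790666, to the stop codon in capitals, which lies 133 nt before the last junction.
Ppm1a-203, join of exons 2 and 3, plus strand: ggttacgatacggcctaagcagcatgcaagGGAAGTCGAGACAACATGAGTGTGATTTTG
Ppm1a-203, exon 4 to the stop codon, plus strand: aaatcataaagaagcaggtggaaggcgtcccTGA

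The share of Ppm1a reads given to Ppm1a-203 separated the mice by transgene. It ran from 11.7% through a median of 12.8% to 14.0% in Grn+/+:hTDP-, and from 11.6% through 13.2% to 14.3% in Grn+/-:hTDP-. With the transgene it ran from 15.6% through 16.0% to 18.0% in Grn+/+ and from 16.2% through 16.8% to 20.3% in Grn+/-. The 12 transgenic libraries all lay above the 12 others. Among the decay-annotated transcripts, 1 of 2855 separated them in share, against 0.0136% of all transcripts tested. The log2 ratio to the rest of the gene rose by 0.45 (SE 0.057, limma adjusted p = 0.00268).

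The level of Ppm1a-203 rose less than its share. It ran from 37.2 through 40.7 to 44.8 CPM in Grn+/+:hTDP-, from 36.2 through 41.1 to 43.9 in Grn+/-:hTDP-, from 44.1 through 48.1 to 52.4 in Grn+/+:hTDP+ and from 46.6 through 48.4 to 52.3 in Grn+/-:hTDP+. The lowest transgenic library, replicate 2 of Grn+/+:hTDP+, lay below the highest of the others, so the 12 and 12 overlapped at that point. For levels, 0 of 2906 decay-annotated transcripts separated the 12 and 12, against 0.0207% of all. The log2 change was 0.26 (SE 0.029, edgeR adjusted p = 0.000158) on average, 0.24 in Grn+/+ (adjusted p = 0.049) and 0.28 in Grn+/- (adjusted p = 0.0123). The interaction was 0.04 (SE 0.057, adjusted p = 1). Leaving out each library in turn, the average effect was called in 24 of 24 fits for level and for share. In Grn+/+ alone it was called in 1 of 24, that without Grn+/+:hTDP+ replicate 4, and in Grn+/- alone in 21 of 24, not without Grn+/-:hTDP- replicate 2, Grn+/-:hTDP+ replicate 4 or Grn+/-:hTDP+ replicate 5. Without the library that stood apart the average changes were 0.26 in level (adjusted p = 0.000168) and 0.45 in share (limma adjusted p = 0.000578), and the share was also called in Grn+/- (adjusted p = 0.0272).

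Of the other Ppm1a transcripts, Ppm1a-201 fell. This main coding transcript ran from 173 to 204 CPM in the 12 libraries without the transgene and from 123 to 159 CPM in those with it. These ranges did not overlap. Its level fell by 0.37 on the log2 scale (SE 0.033, edgeR adjusted p = 5.31e-06). The retained intron transcript Ppm1a-208 did not pass for level, at 0.12 (adjusted p = 0.568), and rose by 0.32 as a ratio to the rest of the gene (limma adjusted p = 0.0435). The second coding transcript, Ppm1a-205, had 0.08 for level (adjusted p = 0.977) and 0.23 for its ratio (adjusted p = 0.817). The change in share of Ppm1a-203 was not called by limma when shares were taken in TPM (log2 change 0.29, adjusted p = 0.203). Nor was it with no filter on low counts (0.45, adjusted p = 0.0924) or with age as a factor (0.46, adjusted p = 1). The quasi-likelihood test of usage did not call it (0.27, adjusted p = 0.0913). That 0.27 is relative to the change of the whole gene, so it is on another scale than the limma values. With age as a factor the level of Ppm1a-203 was not called either, at 0.27 (edgeR adjusted p = 0.451).

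**Figure D3:**
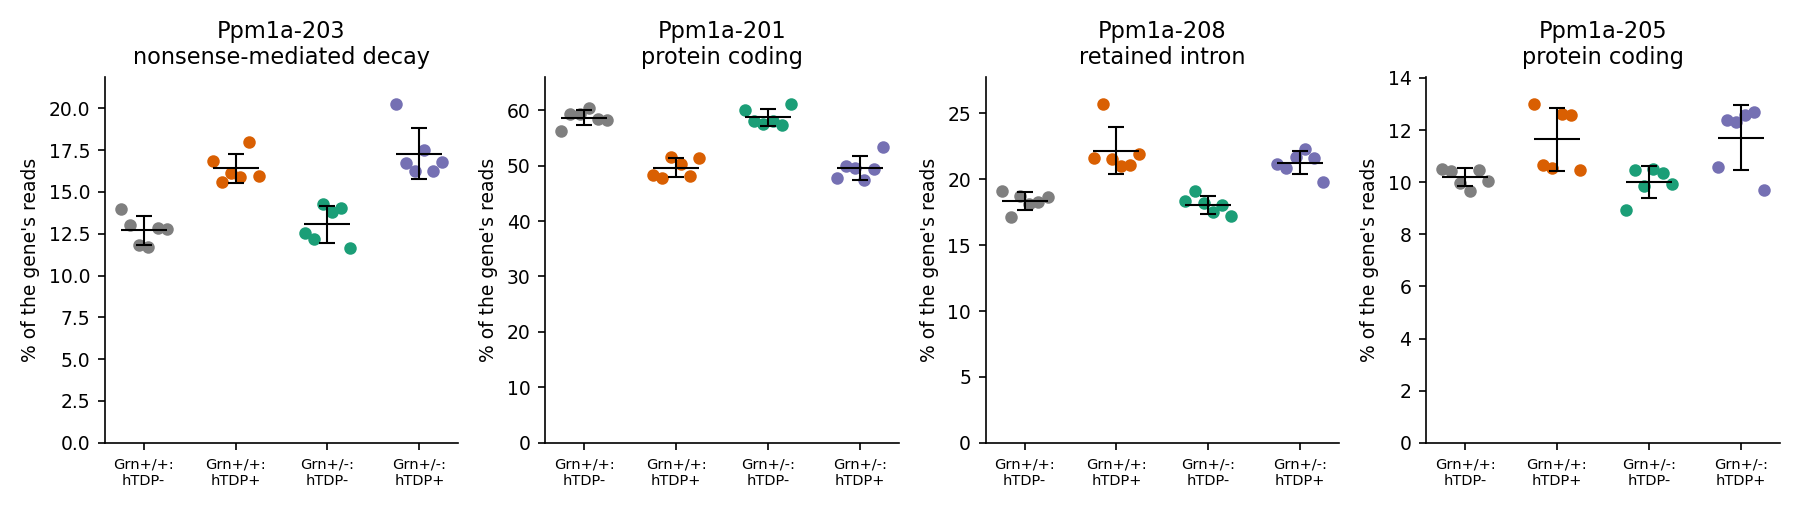
Share of Ppm1a reads (percent) assigned to each of 4 Ppm1a transcripts in every mouse, by genotype, with mean and SD of 6. The decay-annotated Ppm1a-203 lies at 15.6% to 20.3% in all 12 hTDP+ mice and at 11.6% to 14.3% in the others, and Ppm1a-201 is lower in all hTDP+ mice.

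Lrp8-209 came next by adjusted p and was not called. Lrp8 encodes the receptor of reelin and apolipoprotein E in neurons. The transcript, at chr4:107802261-107874167 on the plus strand, keeps the stop codon of the coding transcript in exon 20 of 21, and an intron of 1708 nt is removed after it, at chr4:107872374-107874081, which puts the stop 62 nt before the last junction. Its share ran from 3.26% through 5.76% to 7.11% in Grn+/+:hTDP-, from 1.66% through 3.19% to 5.10% in Grn+/+:hTDP+, from 5.37% through 7.05% to 7.40% in Grn+/-:hTDP- and from 1.97% through 3.03% to 4.66% in Grn+/-:hTDP+. The 1.66% is in the library that stood apart, and the next lowest in that group was 2.09%. The groups overlapped in Grn+/+ mice and did not in Grn+/- mice. For this and the transcripts that follow, the share of all transcripts that separate 6 from 6 mice was not counted. They were picked by small p, so such a separation adds nothing to the tests. The average log2 change was -0.97 in level (SE 0.19, edgeR adjusted p = 0.095) and -1.04 in share (SE 0.19, limma adjusted p = 0.0862). DESeq2 called the level (adjusted p = 0.000327) and edgeR's likelihood-ratio test of usage the share (adjusted p = 0.0145). Over all transcripts DESeq2 called many more for this effect than edgeR did, as given below, so a DESeq2 call here is weaker evidence than an edgeR call. Without Grn+/+:hTDP- replicate 2, edgeR called the level (adjusted p = 0.042) and limma the share (adjusted p = 0.0285). Limma also called the share without Grn+/+:hTDP+ replicate 1 (adjusted p = 0.0456).

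Slc2a1-204, of the glucose transporter GLUT1 of the blood-brain barrier, was also short of the threshold. It lies at chr4:119108914-119137330 on the plus strand and skips exon 5 of Slc2a1-201, which has 163 nt at chr4:119133097-119133259. The join brings a stop codon into frame within 6 bases, which is why it is shown, with 30 bases before the join and the stop codon in capitals.
Slc2a1-204, join over the skipped exon, plus strand: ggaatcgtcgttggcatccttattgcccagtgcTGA

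The level of Slc2a1-204 ran from 3.66 through 4.03 to 6.24 CPM in Grn+/+:hTDP-, from 7.82 through 8.74 to 20.1 in Grn+/+:hTDP+, from 5.08 through 5.86 to 9.56 in Grn+/-:hTDP- and from 6.66 through 8.63 to 13.0 in Grn+/-:hTDP+. The Grn+/+ groups did not overlap and the Grn+/- groups did. The highest value is that of the library that stood apart, and without it the Grn+/+:hTDP+ mice reached 10.9 CPM. The average log2 change was 0.83 (SE 0.17, edgeR adjusted p = 0.135) and without that library 0.68 (adjusted p = 0.0967). DESeq2 called it with all libraries (adjusted p = 0.00131). Of its bases, 105 overlap Gm12868 on the opposite strand, and whether the counting used strand is not given in the sources used here.

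Other transcripts among the smallest p were further from the threshold. Eno2-208, of the neuronal form of enolase, had a mean of 10.9 reads and was listed at 0 in 2 of 12 libraries without the transgene and in 9 of 12 with it. Its fitted log2 ratio of -3.33 rests on the reads added to these zeros and was not called (limma adjusted p = 0.580). Cbarp-207 had a log2 change in level of -0.27 (edgeR adjusted p = 0.477, DESeq2 adjusted p = 0.0288), with medians of 10.8 and 9.88 CPM without the transgene and 8.96 and 8.65 CPM with it in Grn+/+ and Grn+/- mice. Its groups overlapped in Grn+/+ mice and did not in Grn+/- mice. Dlg1-209, of a synaptic scaffold protein, had 0.32 (adjusted p = 0.719) and overlapped in both. Gga2-202, of a clathrin adaptor of the Golgi, held a median of 52.9% and 49.0% of its gene without the transgene and 44.3% and 43.0% with it. Its groups did not overlap in Grn+/+ mice and did in Grn+/- mice, and its lowest value, 25.9%, is in the library that stood apart. The log2 ratio of Gga2-202 to the rest of its gene differed by -0.50 (limma adjusted p = 0.755). Mtch2-203, of a protein of the outer mitochondrial membrane, ran from 6.63 through 8.44 to 9.90 CPM in Grn+/+:hTDP- and from 4.53 through 5.93 to 6.32 CPM in Grn+/+:hTDP+. These groups did not overlap, but the change of -0.52 was not called (edgeR adjusted p = 0.831, DESeq2 adjusted p = 0.0373), and its interaction of 0.60 had an adjusted p of 1.

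**Figure D4:**
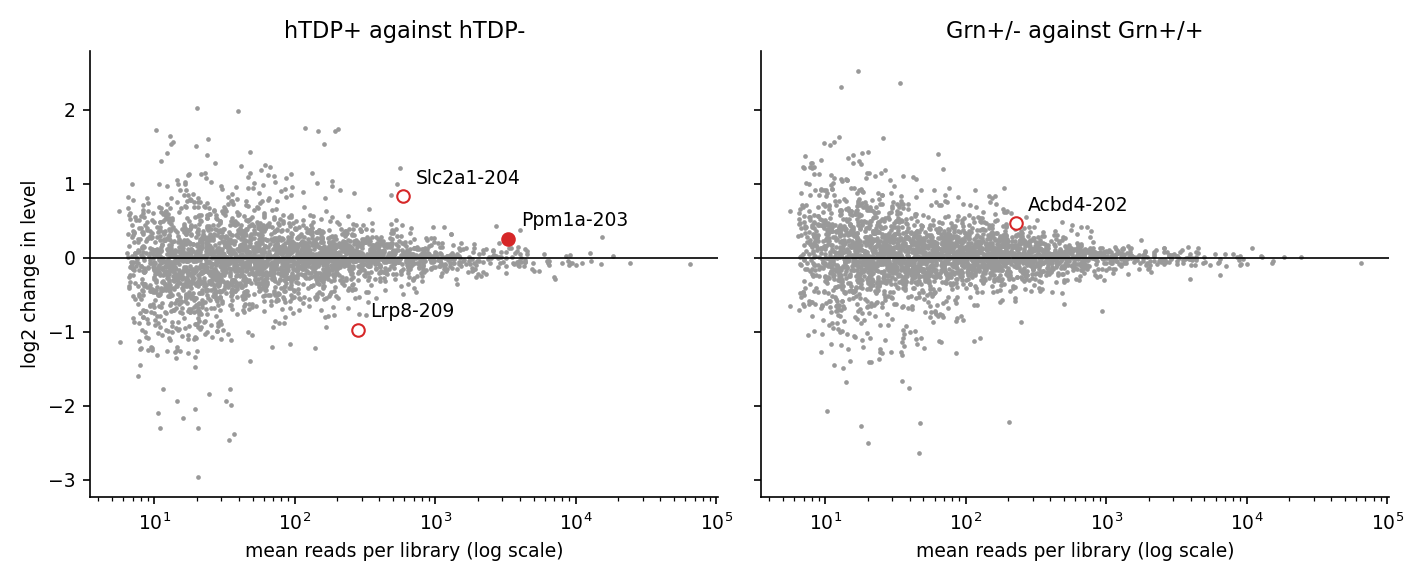
Log2 change in level of each decay-annotated transcript tested (edgeR) against its mean reads per library on a log scale, for hTDP+ against hTDP- (left) and Grn+/- against Grn+/+ (right). The filled point is Ppm1a-203, called at 0.26; open points are transcripts named in the text that were not called.

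Over the whole set, level changes with the transgene were centred where those of all transcripts were. The average log2 change was above 0 for 1407 of 2906 (48.4%), and its median was -0.01, beside 48.0% and -0.01 over all transcripts tested. The median was -0.02 over protein-coding and 0.06 over retained intron transcripts. An unadjusted p under 0.05 was reached by 109 of them (3.75%) and by 5.57% of all. For shares the average was above 0 for 1028 of 2855 (36.0%), with a median of -0.13, beside 42.3% and -0.06 over all. Without the library that stood apart these medians were -0.0029 and 0.0036. In Grn+/+ mice the medians of -0.21 and -0.09 became -0.0042 and 0.011 without it.

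By structure, the median log2 change in level was -0.02 for the 537 tested transcripts with the stop codon in an added exon, -0.03 for the 826 with a skipped exon, -0.06 for the 136 with an added exon before the stop and 0.03 for the 148 with the stop codon of the coding transcript. No transcript of these 4 classes was called, and Ppm1a-203 belongs to the 1215 with another difference, whose median was 0.0039.

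No decay-annotated transcript was called for the Grn genotype. The edgeR test called 0 of 2906 for level on average (0.00565% of all transcripts), 0 without the transgene (0% of all) and 0 with it (0.00377% of all). At an unadjusted p under 0.05 there were 51, 37 and 74, beside 2.90%, 1.77% and 2.90% of all transcripts. Without the library that stood apart these counts were 88, 92 and 85 (3.0%, 3.13% and 2.89%), beside 3.91%, 3.36% and 2.91% of all. DESeq2 called 1, 0 and 0, and the shares over all given for edgeR do not apply to it. For shares limma called 0 of 2855 on average, without and with the transgene (0%, 0% and 0.00226% of all). Unadjusted p was under 0.05 for 70, 61 and 160, beside 3.21%, 1.73% and 5.02% of all. These counts were 108, 128 and 138 without that library, beside 3.967%, 3.676% and 3.98% of all. The quasi-likelihood test of usage called 1, 2 and 0, and the shares over all given for limma do not apply to it. No transcript separated the 12 Grn+/- from the 12 Grn+/+ libraries in level (0.00754% of all) or in share (0% of all).

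Acbd4-202, of a protein that binds acyl-CoA, had the smallest p for level averaged over the transgene and is the 1 that DESeq2 called (adjusted p = 0.00945). Its level ran from 1.96 through 2.47 to 3.4 CPM in Grn+/+:hTDP-, from 1.59 through 2.64 to 3.24 in Grn+/+:hTDP+, from 3.09 through 3.63 to 4.08 in Grn+/-:hTDP- and from 3.13 through 3.53 to 4.08 in Grn+/-:hTDP+. The medians of the Grn+/- groups were above the highest Grn+/+ value, and the ranges overlapped. The 1.59 CPM is in the library that stood apart, and the next lowest in that group was 2.11 CPM. The log2 change was 0.47 (SE 0.11, edgeR adjusted p = 1). Acbd4 lies 665 kb from Grn on chromosome 11, and the part of the chromosome segment around the targeted allele in this value was not tested.

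Clmn-205, of the membrane protein calmin, had the smallest p for share averaged over the transgene. It had a mean of 17.2 reads and was listed at 0 in 8 of the 12 Grn+/+ libraries and in 0 of the 12 Grn+/- libraries. Its level reached 0.238 CPM in Grn+/+:hTDP- and 0.395 CPM in Grn+/+:hTDP+, and ran from 0.171 to 0.656 CPM in Grn+/-:hTDP- and from 0.131 to 0.852 CPM in Grn+/-:hTDP+. The ranges overlapped, and the log2 ratio to the rest of the gene, which rests on the reads added to the zeros, was 4.04 (SE 0.78, limma adjusted p = 0.257).

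The interaction was called for 0 of 2906 levels (0% of all) and 0 of 2855 shares (0% of all). Unadjusted p was under 0.05 for 58 levels (1.996%) and 99 shares (3.468%), beside 2.149% and 2.82% of all transcripts. These counts were 87 (2.961%) and 143 (4.945%) without the library that stood apart, beside 2.68% and 3.681% of all. DESeq2 and both tests of usage also called 0. The median log2 interaction in share was 0.17, beside 0.08 over all, and -0.030 and -0.015 without the library that stood apart.

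The RNA-binding protein genes were described by lists. Of 13 SR and Tra2 genes, 10 had a decay-annotated transcript, 11 in all, and in 8 of the 11 the stop codon lay in an added exon. Of 27 hnRNP genes 13 had 18 transcripts, 2 of them with the stop in an added exon. Of 49 other RNA-binding and spliceosome genes 28 had 45, 21 of them with the stop in an added exon. The median shares were 2.36%, 2.29% and 1.09%, beside 3.13% over all members. None of the 11, 17 and 43 tested was called for the transgene or the Grn genotype on average, or for the interaction, in level or share. Over all transcripts 0.0415%, 0.00565% and 0% were called for level, and 0.0203%, 0% and 0% for share. At these shares, 0 calls do not set the lists apart from all transcripts.

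Among SR genes Srsf9-205 had the highest share, with a median of 30.5% in Grn+/+:hTDP-, 35.0% in Grn+/+:hTDP+, 32.5% in Grn+/-:hTDP- and 33.8% in Grn+/-:hTDP+, an order kept for the medians that follow. Its highest value, 51.8%, is in the library that stood apart. Srsf3-201, whose exon is printed above, ran from 9.37% through 11.3% to 14.4% of its gene in Grn+/+:hTDP-, from 10.3% through 10.9% to 12% in Grn+/+:hTDP+, from 10.4% through 11.6% to 13.5% in Grn+/-:hTDP- and from 9.12% through 10.7% to 13.4% in Grn+/-:hTDP+. All 4 groups overlapped, and the average transgene effect on its level was -0.04 (SE 0.072, edgeR adjusted p = 1). Tra2b-206 had medians of 8.0%, 7.92%, 8.76% and 7.82% in the same order, and 0.11 for level (SE 0.10, adjusted p = 1).

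Srsf6-201 was at 0 in the library that stood apart and between 2.14% and 6.32% elsewhere. Srsf7-203 had medians of 2.35%, 2.24%, 2.13% and 2.33%, and Srsf1-204 1.42%, 1.44%, 1.60% and 1.49%. The groups overlapped for each of these. By median share the order was the same in all 4 groups, from Srsf9-205 through Srsf3-201, Tra2b-206, Srsf6-201 and Srsf7-203 to Srsf1-204, although over single mice the ranges of neighbours in this order overlapped, except for Srsf9-205 and Srsf3-201.

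**Figure D5:**
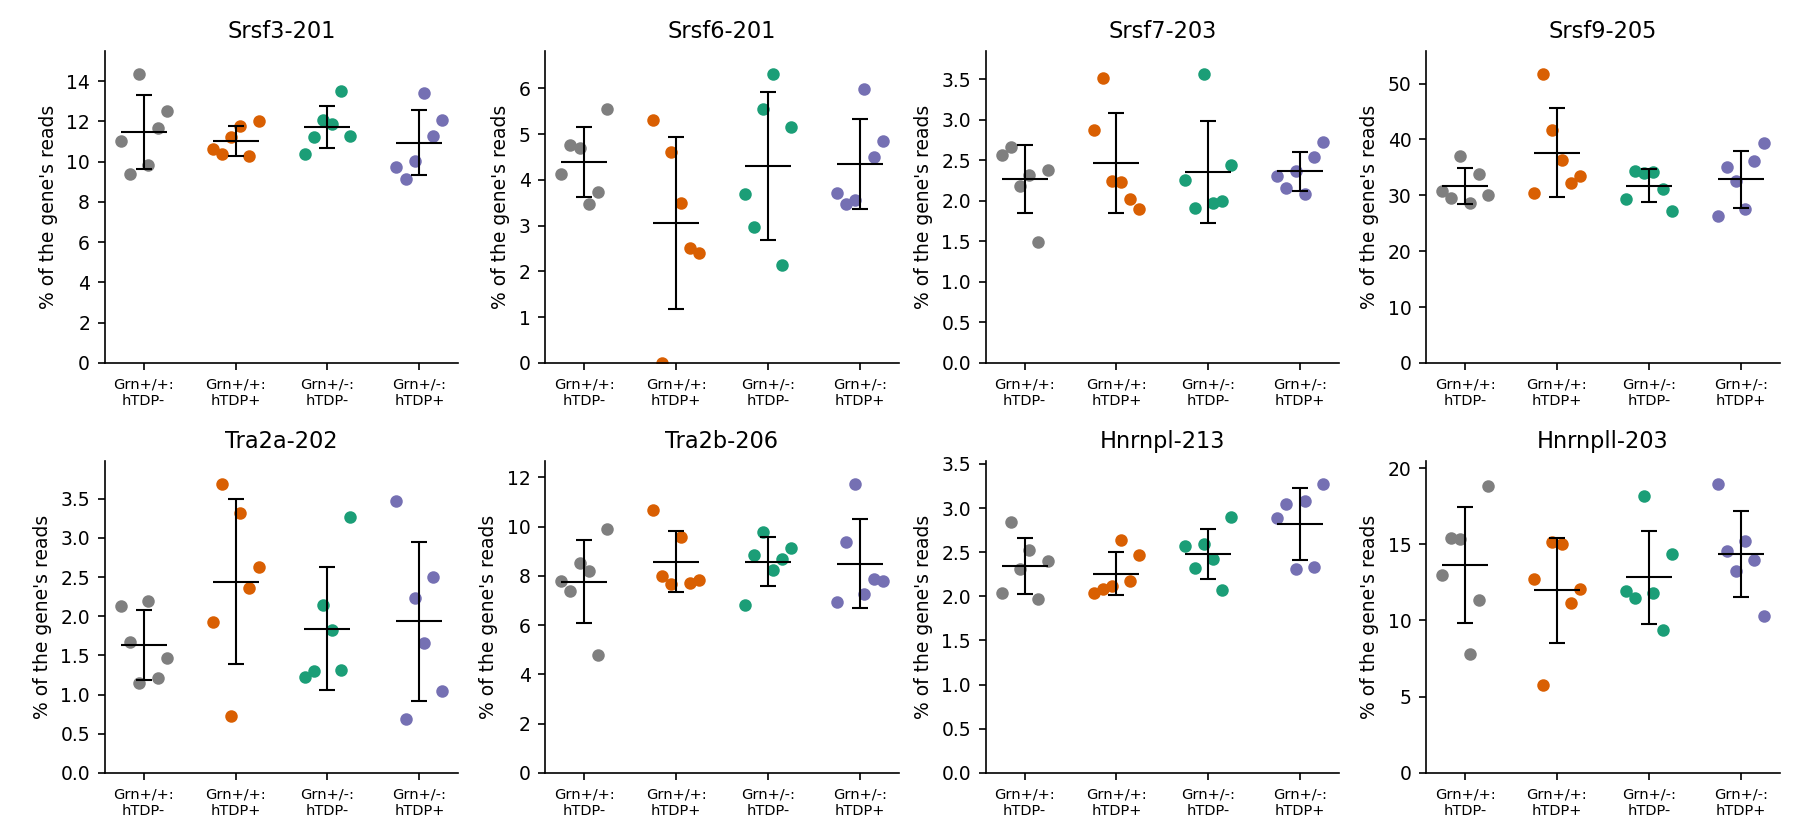
Share of the gene's reads (percent) assigned to 8 decay-annotated transcripts of SR, Tra2 and hnRNP genes in every mouse, by genotype, with mean and SD of 6. Groups overlap in all 8; the 0 for Srsf6-201 and the 51.8% for Srsf9-205 are replicate 2 of Grn+/+:hTDP+.

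Among hnRNP genes Hnrnpu-206 had medians of 55.4%, 52.7%, 55.1% and 53.7% in the same order, with a log2 change in level of -0.08 for the transgene (SE 0.034, edgeR adjusted p = 0.878). Hnrnpll-203 ran from 5.74% to 19.0% over all mice with medians of 14.2%, 12.4%, 11.8% and 14.3%. The 5.74% is in the library that stood apart, and the next lowest was 7.80%. Hnrnpdl-201, of a relative of AUF1, had medians of 15.2%, 13.4%, 15.3% and 14.7%, and Hnrnph3-204 14.4%, 15.7%, 13.3% and 14.2%. Hnrnpa1 had a pair, Hnrnpa1-203 with 5.58%, 5.84%, 6.51% and 6.14%, and Hnrnpa1-204 with 8.05%, 8.71%, 8.06% and 8.40%. In every case the groups overlapped.

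Of the other RNA-binding genes, Clk1-210, of a kinase that phosphorylates SR proteins, skips an exon and had medians of 20.6% and 25% without the transgene and 25.9% and 25.2% with it in Grn+/+ and Grn+/- mice. Its log2 change in level was 0.45 (SE 0.20, edgeR adjusted p = 0.868). Sf1-201, of the protein that recognises the branch point, had medians of 26.4%, 25.8%, 28.1% and 25.6% in the order of the groups above, and Khdrbs3-204 25.2%, 24.2%, 25.7% and 26.5%. Qk-202, of the quaking protein of glia, had 12.3%, 12.4%, 12.8% and 12.2%. Tia1-205 had 22.9%, 24.8%, 22% and 24.9% and was at 0 in the library that stood apart, and Tia1-218, shown above, had 1.13%, 1.14%, 0.838% and 1.15%. Tial1-204, shown with it, had 2.34%, 3.03%, 2.95% and 3.01%.

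The factors of the pathway itself were described at gene level. None of 25 genes of nonsense-mediated decay and the exon junction complex was called for the average transgene effect, where 0.11% of 18239 genes were, and their median log2 change was 0.01, from -0.09 in Gspt1 to 0.11 in Dhx34. Upf1, the RNA helicase at the centre of the pathway, stood at 96.0 CPM ± 4.42 without and 96.2 ± 4.40 with the transgene (SD, n = 12). For the average Grn effect 0 of 25 were called, where 0.0219% of all genes were. Only 2 of the 25 genes had a decay-annotated transcript, Smg5-202 at 0.981% and Smg6-202 at 5.03% of their genes, and Smg6-202 was at 0 in 7 libraries.

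Genes commonly used as readouts of decay, whose RNA rises when the pathway slows, were also measured. None of 10 was called for the transgene, where 0.11% of 18239 genes were. Of the 10 log2 changes 6 were above 0, with a median of 0.03 beside 0.003 over all genes. The largest of their averages was 0.27 in Snhg15, and Gas5, a host gene of small nucleolar RNAs, went from 20.1 CPM ± 1.78 to 22.3 ± 2.19 (SD, n = 12), a log2 change of 0.15 (SE 0.053, edgeR adjusted p = 0.540). Gadd45b, a stress-induced gene, had -0.16. For the average Grn effect 0 of these 10 genes were called, where 0.0219% of all genes were. Of their log2 changes for Grn, 8 were above 0, with a median of 0.07 beside 0.005 over all genes. In the RNA-binding lists, with 13, 27 and 49 genes tested, 1 gene was called for the transgene, beside 0.11% of all genes. This was Clns1a, of a chaperone of Sm protein assembly, in the list of 49. It fell by 0.12 on the log2 scale (SE 0.025, edgeR adjusted p = 0.0467), from 53.9 CPM ± 1.96 to 49.5 ± 1.79 (SD, n = 12). Of the 13 SR and Tra2 genes 12 had a log2 change above 0 with a median of 0.05, beside 0.003 over all genes, and 0 were called.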

How the data were processed

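Per the submitters' processing notes, STAR, SAMtools, Salmon and DESeq2 were used; for the genome build, annotation release and strand setting the sources used here give nothing. The deposited files hold the authors' estimated counts and TPM per transcript. Identifiers were matched without version to GENCODE M21, which placed 138032 of 149444 transcripts (92.4%). Estimated counts were rounded to whole numbers, filtered with filterByExpr, scaled by TMM and tested with edgeR 4.0.16 (glmQLFTest). Shares were tested with limma 3.58.1 on log2 of transcript reads over the rest of the gene, with 0.5 reads added to each. R 4.3.3, DESeq2 1.42.0 and Python 3.11.15 were used, and the procedures were tested on simulated data. P-values were Benjamini-Hochberg adjusted over all transcripts. All 24 libraries entered each fit, with the 4 genotypes as groups and sex as a covariate; replicates were numbered in accession order. Libraries held 61445842 to 100859149 reads. Named transcripts are the 10 of highest TPM, the 10 of highest share in genes of at least 100 reads, those called or the 5 of smallest p per comparison, and up to 6 per list; 1 of them is not reported here. Shares of 100% in genes without a coding transcript were replaced by the next in genes with one, and Hnrnpl-213, Snrpb-203, Rbm39-225, Tia1-218, Tial1-204 and Tra2a-202 were added, both after values were seen. Members and lists were chosen with earlier results of these data known. Alternatives changed the filter, scaling, test, unit, added reads, age term and libraries.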

Additional observations from a re-analysis of the deposited data

Results flagged for a closer look

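Of 184 groups of 6 examined, 15 had 1 library far from the other 5, and chance alone flags about 1 in 20 groups. Of these, 6 are replicate 2 of Grn+/+:hTDP+. It listed 1398 decay-annotated transcripts at 0 (next highest 193) and had a median share of 0.428% (next lowest 2.53%). Slc2a1-204 stood at 20.1 CPM (next 10.9) and 25.7% of its gene (next 11.7%) in it, and Mtch2-203 at 4.53 CPM (next 5.89) and 8.37% (next 10.4%).

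Ppm1a-203 held 20.3% of its gene in Grn+/-:hTDP+ replicate 1, where the next mouse had 17.5%. Tra2b-206 reached 7.19 CPM in Grn+/-:hTDP+ replicate 3 (next 5.24). Atp2a2-203 reached 1056 CPM in Grn+/-:hTDP- replicate 6 (next 886). Srsf7-203 reached 2.41 CPM (next 1.53) and 3.57% of its gene (next 2.44%) in Grn+/-:hTDP- replicate 3. Clmn-205 was at 0.238 CPM and 0.329% of its gene in Grn+/+:hTDP- replicate 5 and at 0 in the other mice of that group. Cbarp-212 reached 369 CPM in Grn+/-:hTDP+ replicate 6 (next 326) and 372 CPM in Grn+/+:hTDP- replicate 5 (next 338).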

How the results depend on the processing

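Counts of called transcripts changed with some settings, and the cause was not tested. For level, the transgene in Grn+/+ (1 called) gave 0 with no filter, 0 with age as a linear term, 0 with age as a factor and 3 with DESeq2. The transgene in Grn+/- (1) gave 0 with no filter, 0 with age as a factor and 2 with DESeq2. The average transgene effect (1) gave 0 with age as a factor and 4 with DESeq2, and the average Grn effect (0) gave 1 with DESeq2. For share, the transgene in Grn+/+ (0) gave 1 with the likelihood-ratio and 1 with the quasi-likelihood test of usage, and in Grn+/- (0) 1 with the likelihood-ratio test. The average transgene effect (1) gave 0 with shares in TPM, 0 with no filter, 0 with age as a factor and 2 with the likelihood-ratio test. With the quasi-likelihood test of usage, Grn+/- without the transgene (0) gave 2 and the average Grn effect (0) gave 1.

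Leaving out 1 library at a time gave 0 to 1 for the transgene in each Grn genotype and 1 to 2 for its average, in level and in share alike, and 0 to 0 for the other 8 results. Over all transcripts, DESeq2 called 193 for the average transgene effect, where edgeR called 22. No named change reversed. No paired analysis was possible because the replicate numbers follow accession order and name samples only. Ages differ between genotypes, and 4 of 6 Grn+/-:hTDP- mice have an age no other group holds. Low reads limit most of these transcripts, and reads shared between transcripts were split by estimation.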

Other observations

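Several transcripts were called by 1 alternative test of usage and not by limma. With edgeR's quasi-likelihood test of usage, Alg13-212 had a log2 change of 3.25 (adjusted p = 0.0118) and Dpf2-201 of -3.0 (adjusted p = 0.0332) in Grn+/- against Grn+/+ without the transgene. Tsta3-202 had -1.62 for the average Grn effect (adjusted p = 0.0488). For the transgene, Csnk2a2-205 had -1.67 on average (adjusted p = 0.0448) and Rbm6-202 1.65 in Grn+/+ mice (adjusted p = 0.0397). Zfp426-211 was called by limma in Grn+/+ mice only without Grn+/+:hTDP+ replicate 4, at -6.10 (adjusted p = 0.0175). Alg13-212, Dpf2-201 and Zfp426-211 had low means of 13.0, 10.3 and 24.6 reads. Over the settings and tests of share, which differ in scale, their log2 changes ran from 2.36 to 5.53, -4.25 to -1.5 and -6.10 to -2.0.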
